A study of Homo sapiens with 6 samples.

Results

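The genes described here encode the subunits of Mediator and Integrator, and they were measured in BE(2)-C cells, an established human neuroblastoma line, after 2 days with 10 µM NCT-503 or with the vehicle DMSO. They were taken as every array row whose platform gene symbol is MED or INTS followed by a number, or is CDK8, CDK19 or CCNC, with 1 row per gene. This gave 43 genes of the 14779 tested, 31 of Mediator and 12 of Integrator. A pseudogene of MED15, a pseudogene of INTS4 and an antisense transcript of MED4 were left out by the rule. The compound NCT-503 inhibits PHGDH, the enzyme that opens serine synthesis. Both groups are the same unmodified line in the same serum-containing medium, with 3 arrays per group and 1 sample per array. The compound is the only difference between the groups that the labels name. The labels call the samples independent but do not say whether they were separate cultures, and the p-values therefore cover only the spread seen among them, which may be technical.

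Mediator is the large complex that stands between DNA-bound activators and RNA polymerase II. Its head and middle contact the polymerase, its tail receives activators, MED14 runs through the complex as a scaffold, and a separable kinase module of CDK8 or CDK19, cyclin C (CCNC), MED12 and MED13 docks on it and blocks polymerase binding. Integrator acts after initiation: it carries an RNA endonuclease and recruits the phosphatase PP2A, cuts the 3′ ends of small nuclear RNAs, and ends transcription of many polymerases paused near promoters. In neuroblastoma, Mediator is dense at the large enhancers of the adrenergic core transcription factor genes.

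Levels are deposited log2 values. A change is the NCT-503 mean minus the DMSO mean on that scale, given with its standard error (SE) from limma. A gene was called higher or lower at a Benjamini-Hochberg adjusted p under 0.05 from limma over all 14779 genes. The number of arrays limits the precision, and the median SE of a change was 0.105. With unnamed rows included, the median of an array was 4.32 to 4.33 for NCT-503 and 4.30 to 4.31 for DMSO. For the 14779 genes tested the order was the reverse. Their medians were 4.97 to 4.99 for NCT-503, below the 5.02 to 5.03 for DMSO. Their 75th percentiles were 6.64 to 6.70 for NCT-503, below the 6.73 to 6.76 for DMSO. Of 10 adrenergic neuroblastoma markers, 7 had a named row, with mean levels from 5.97 (TH) to 10.2 (DBH). Of those 7, 71.4% were called, beside 33.5% of all genes. PHOX2A, GATA3 and DBH were higher (changes of 0.75, 0.37 and 0.37), and HAND2 and ISL1 were lower (-0.30 and -0.29). Of the markers of other cell types, 1 of 4 for blood, 1 of 3 for endothelium, 1 of 4 for fibroblasts and 2 of 3 for epithelium had a named row. LYZ of blood lay at 2.80, VWF of endothelium at 3.69, DCN of fibroblasts at 4.58, and KRT8 and EPCAM of epithelium at 5.03 and 5.11. DCN was the only one of these that was called (change of -0.47, adjusted p = 0.00687), and its part in the results below was not tested. In such bulk samples, fewer cells of a kind and less RNA per cell cannot be told apart.

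Of the 43 subunit genes, 9 were higher and 14 were lower after NCT-503, and 20 were not called. The largest fall was that of INTS5, to 0.347 of its DMSO level, and the largest rise that of MED8, 1.80-fold. Subunits of the same module went in opposite directions: in the head MED8 rose and MED17 fell, and in the kinase module CDK8, MED12 and MED13L rose while MED13 and MED12L fell. Calls over all genes also went both ways, 16.4% higher and 17.1% lower. Whether modules were more mixed than other groups of genes was not tested. The scaffold MED14 was not called. With centring of the arrays on their 75th percentile the split was 11 higher and 11 lower, and all genes together went to 3345 higher and 2189 lower, against 2419 and 2534 on the deposited scale.

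The share of subunits called has to be read against a large response in all genes. Of all genes tested, 33.5% were called, 16.4% higher and 17.1% lower, against 23 of the 43 subunits (53.5%). The subunits were brighter than most genes, with 40 of the 43 at or above the 50th percentile of mean level. When only genes from that level up were tested, 61.3% of those genes were called, and 25 of these 40 subunits (62.5%), 10 higher and 15 lower. Over all genes 47.9% had groups that did not overlap, and 67.8% of the genes from the 50th percentile up, against 32 of the 43 subunits and 30 of the 40 brighter ones. In the brighter genes the subunits were thus called at about the background share. The median change of the subunits was -0.07 and that of all genes was 0.06. A call with an absolute change of at least 0.5 on the log2 scale was found for 10 subunits, and for 18.3% of all genes.

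**Figure D1:**
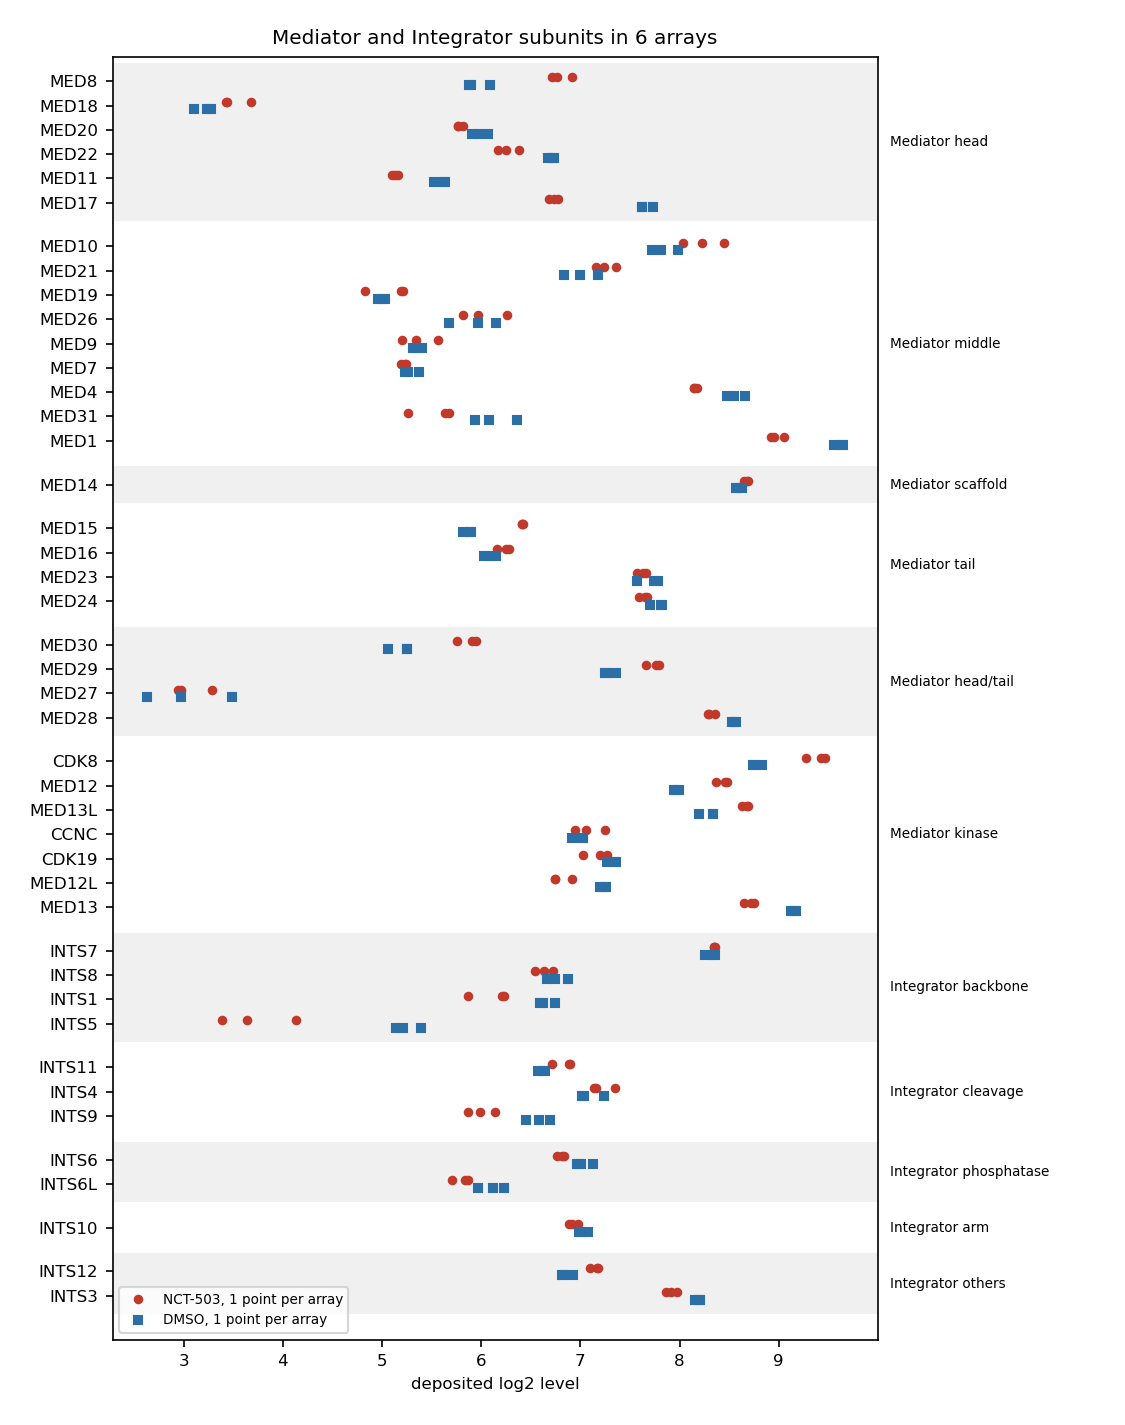
Deposited log2 level of each of the 43 subunit genes (horizontal axis) in the NCT-503 arrays (red circles, upper of each pair) and the DMSO arrays (blue squares, lower), 1 point per array, with genes grouped by module. The groups stand apart for 32 genes, widest for INTS5 and MED17, and they overlap for genes such as CCNC, INTS7 and MED27.

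The Mediator head, which makes the first contacts with the polymerase and its initiation factors, had 6 measured subunits. MED17, the central head subunit, measured 6.78, 6.68 and 6.73 in NCT-503 arrays a, b and c, against 7.62, 7.73 and 7.62 in DMSO arrays a, b and c. Every NCT-503 array lay below every DMSO array, with a gap of 0.84. The change was -0.93 ± 0.07 (SE, adjusted p = 0.000176), the largest fall of any Mediator subunit. MED8, which joins the rest of the head to the MED18 and MED20 pair, went the other way, with 6.92, 6.71 and 6.76 in NCT-503 arrays, against 5.88, 5.89 and 6.09 in DMSO arrays. All NCT-503 arrays lay above all DMSO arrays, and the change was 0.85 ± 0.10 (adjusted p = 0.000666). MED11 and MED22, which pair with each other in the head, fell by 0.46 ± 0.07 and 0.44 ± 0.08. MED18 had a change of 0.31 (adjusted p = 0.0510) on a dim row, with means of 3.51 with NCT-503 and 3.21 with DMSO. It was called with arrays centred on the median (adjusted p = 0.0290) or on the 75th percentile (0.0207), and with the replicate letter as a block. It was not called with quantile normalization (change of 0.23, adjusted p = 0.130). Its partner MED20 had a change of -0.20 (adjusted p = 0.0829) and was called when only genes from the 50th percentile of level were tested (0.0252).

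The middle module, which links head and tail and holds the subunit most used by nuclear receptors, had 9 measured subunits, of which 3 fell and 1 rose. Thus 44.4% of them were called, beside 33.5% of all genes, and 61.3% of genes from the 50th percentile of level up, tested alone. MED1, the coactivator of nuclear hormone receptors, measured 9.05, 8.96 and 8.92 in NCT-503 arrays, against 9.64, 9.55 and 9.64 in DMSO arrays, and fell by 0.64 ± 0.08 (adjusted p = 0.000864). Its groups were 0.50 apart. MED31, a small and highly conserved middle subunit, had 5.26, 5.68 and 5.64 with NCT-503, against 5.94, 6.08 and 6.36 with DMSO, a change of -0.60 ± 0.15 (adjusted p = 0.0197). The DMSO c array was the highest of these, and the call was lost without it (change of -0.48, adjusted p = 0.0566). MED4 fell by 0.41 ± 0.08, and its partner MED9 had a change of 0.01, with an interval (95%) from -0.24 to 0.26. MED10 rose by 0.40 ± 0.12 (adjusted p = 0.0444), with the arrays of the groups only 0.06 apart. That call was lost without DMSO a, DMSO b, NCT-503 b or NCT-503 c (adjusted p from 0.0929 to 0.131), and with all rows tested (0.0611). MED7 and MED21, which form the hinge of the middle module, had changes of -0.07 and 0.25 and were not called. MED21 was called with a trend and robust settings in limma (adjusted p = 0.0490). MED26, the docking site for elongation factors, had a change of 0.08 and MED19 likewise 0.08. For MED26 the interval ran from -0.29 to 0.45.

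The promoters of MED17 and MED1 are shown because these were the largest falls among Mediator genes, and because the motifs in them can be read off. Sequences are from RefSeq (GRCh38.p14), 250 bases up to the annotated start, 5′ to 3′ on the gene's strand, with matches to the searched motifs in capitals. The MED17 window is chr11:93784032-93784281 on the plus strand and the MED1 window chr17:39451264-39451513 on the minus strand.
MED17: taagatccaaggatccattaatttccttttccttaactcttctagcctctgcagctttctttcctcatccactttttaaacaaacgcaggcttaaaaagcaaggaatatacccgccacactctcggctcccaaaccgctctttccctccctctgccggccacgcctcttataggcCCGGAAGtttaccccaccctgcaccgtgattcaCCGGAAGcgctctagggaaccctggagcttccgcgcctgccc
MED1: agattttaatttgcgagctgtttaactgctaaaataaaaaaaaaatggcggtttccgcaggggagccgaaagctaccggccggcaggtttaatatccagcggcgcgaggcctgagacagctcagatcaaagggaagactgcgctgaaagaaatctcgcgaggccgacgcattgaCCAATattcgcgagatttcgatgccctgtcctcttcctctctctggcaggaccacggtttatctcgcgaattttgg
In MED17 the capitals mark the ETS core motif CCGGAAG, beginning 75 and 42 bases before the start. In MED1 they mark CCAAT, the NF-Y motif, beginning 76 bases before the start.

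MED14, the scaffold, measured 8.68, 8.65 and 8.69 in NCT-503 arrays, against 8.57, 8.62 and 8.58 in DMSO arrays. The groups stood apart by 0.03, and the change of 0.08 had an interval from -0.08 to 0.24 and was not called (adjusted p = 0.418).

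Among tail subunits, which bind activators, MED15 alone of 4 measured was called, beside 33.5% of all genes. Of genes from the 50th percentile of level up, tested alone, 61.3% were called, and MED15 was again the only tail subunit called. Whether the tail differed from these shares was not tested. MED15, a target of the sterol-regulating SREBP factors, had 6.41, 6.41 and 6.42 with NCT-503, against 5.89, 5.90 and 5.81 with DMSO. Its NCT-503 arrays had an SD of 0.006 and all lay above the DMSO arrays, and the change was 0.55 ± 0.07 (adjusted p = 0.00114). The annotation also names a row for a pseudogene of MED15, and probes may not separate close copies. MED16 had a change of 0.14, MED23 of -0.08 and MED24 of -0.14, and none of these was called.

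The metazoan subunits MED27 to MED30 have been placed in head or tail in different descriptions. MED30 had 5.90, 5.76 and 5.94 with NCT-503, against 5.06, 5.26 and 5.25 with DMSO, and rose 1.60-fold (0.68 ± 0.09, adjusted p = 0.00149). MED29 rose by 0.45 ± 0.08 (adjusted p = 0.00419). Both had groups at least 0.30 apart. MED28 fell by 0.23 ± 0.07 (adjusted p = 0.0377), but leaving out any array ended the call (adjusted p between 0.0561 and 0.107), as did centring each array on its 75th percentile (0.105) or on its median (0.0681). The MED28 call was also lost with the replicate letter as a block (0.0792) and with all rows tested (0.0661), and held under quantile normalization (0.0296). MED27 was the dimmest row, with means of 3.07 ± 0.19 with NCT-503 and 3.03 ± 0.43 with DMSO (SD, n = 3 each), and its groups overlapped.

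**Figure D2:**
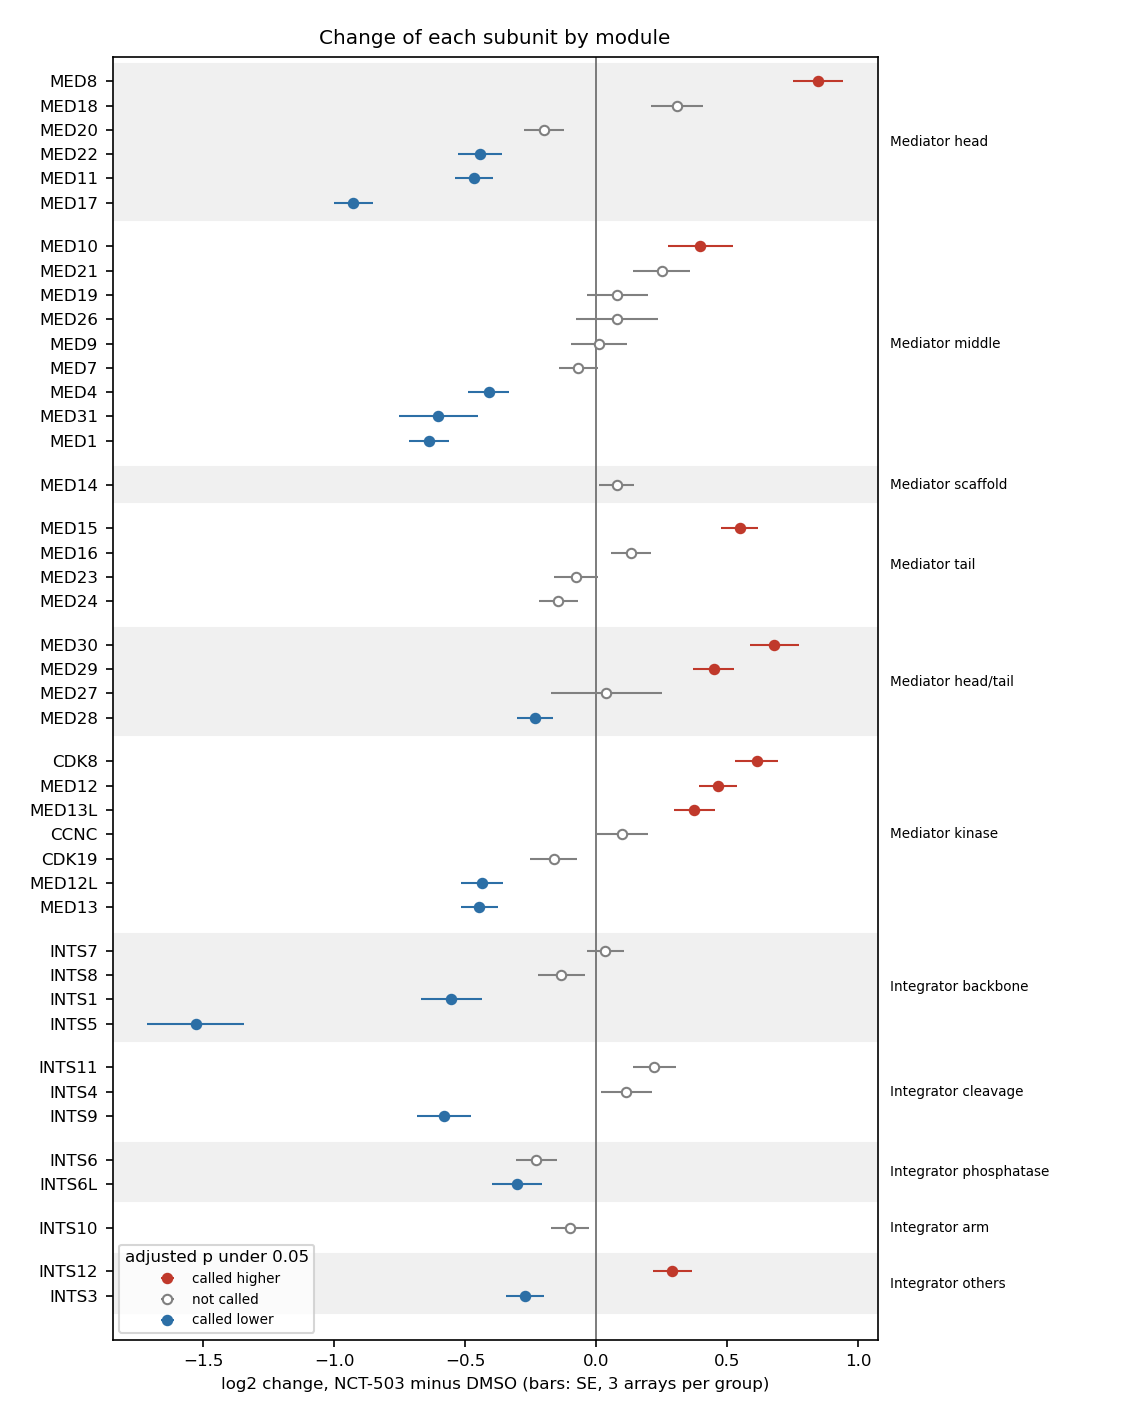
Log2 change, NCT-503 minus DMSO, of each subunit gene (horizontal axis) with bars of 1 SE, grouped by module; red marks genes called higher, blue genes called lower, and open grey symbols genes not called. Rises and falls occur side by side in the head, the middle and the kinase module, and the changes run from -1.53 (INTS5) to 0.85 (MED8).

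The kinase module was measured completely, with 3 rises, 2 falls and 2 genes not called. Thus 71.4% of its genes were called, beside 33.5% of all genes. Of genes from the 50th percentile of level up, tested alone, 61.3% were called. CDK8, the kinase of the module, measured 9.27, 9.43 and 9.47 in NCT-503 arrays, against 8.83, 8.75 and 8.74 in DMSO arrays. All NCT-503 arrays were higher than all DMSO arrays, and CDK8 rose 1.53-fold (0.61 ± 0.08, adjusted p = 0.00145). Its paralog CDK19, which takes the same place in the module, had 7.02, 7.27 and 7.20 with NCT-503, against 7.27, 7.34 and 7.36 with DMSO, a change of -0.16 ± 0.09 (adjusted p = 0.205). The CDK19 groups nearly touched, with NCT-503 b and DMSO a 0.002 apart. The cyclin partner of both kinases, CCNC, had 6.94, 7.25 and 7.06 with NCT-503, against 6.91, 7.01 and 7.02 with DMSO, and was not called (0.10 ± 0.10, adjusted p = 0.470).

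MED12, which switches on the kinase, and MED13, which ties the module to the core, each have a paralog, and in both pairs one member rose and the other fell. MED12 had 8.48, 8.46 and 8.36 in NCT-503 arrays, against 7.97, 7.99 and 7.94 in DMSO arrays, and rose by 0.47 ± 0.07 (adjusted p = 0.00259). MED12L had 6.74, 6.91 and 6.74 with NCT-503, against 7.26, 7.24 and 7.20 with DMSO, a fall of 0.43 ± 0.08 on the log2 scale (adjusted p = 0.00563). Neither gene had overlapping groups. MED13 measured 8.72, 8.75 and 8.65 with NCT-503, against 9.16, 9.18 and 9.12 with DMSO, and fell by 0.45 ± 0.07 (adjusted p = 0.00295). MED13L measured 8.63, 8.68 and 8.69 with NCT-503, against 8.20, 8.34 and 8.34 with DMSO, and rose by 0.38 ± 0.08 (adjusted p = 0.00862). Here too every array of one group lay on one side of the other group.

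The difference between paralogs was then taken within each array and compared between the groups, which says nothing of which paralog is more abundant. MED12 minus MED12L averaged 1.63 ± 0.09 with NCT-503 and 0.73 ± 0.02 with DMSO (SD, n = 3 each), a difference of 0.90. MED13L minus MED13 averaged -0.04 ± 0.06 with NCT-503 and -0.86 ± 0.10 with DMSO, a difference of 0.82. CDK8 minus CDK19 averaged 2.23 ± 0.06 with NCT-503 and 1.45 ± 0.10 with DMSO, a difference of 0.78. In these 3 pairs the groups did not overlap. That followed from the genes' own values: NCT-503 arrays all lay above DMSO arrays for CDK8, MED12 and MED13L, and all below for their paralogs. Each pair gave p = 0.1 in a two-sided exact permutation test over the 6 arrays (0.133 after Benjamini-Hochberg adjustment over the 4 pairs). The smallest p that 3 arrays against 3 allow is 0.1, so for these pairs the test adds no support to the changes of the single genes. The Integrator pair INTS6 minus INTS6L averaged 1.00 ± 0.11 with NCT-503 and 0.93 ± 0.21 with DMSO, and its groups overlapped (exact permutation p = 0.7).

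**Figure D3:**
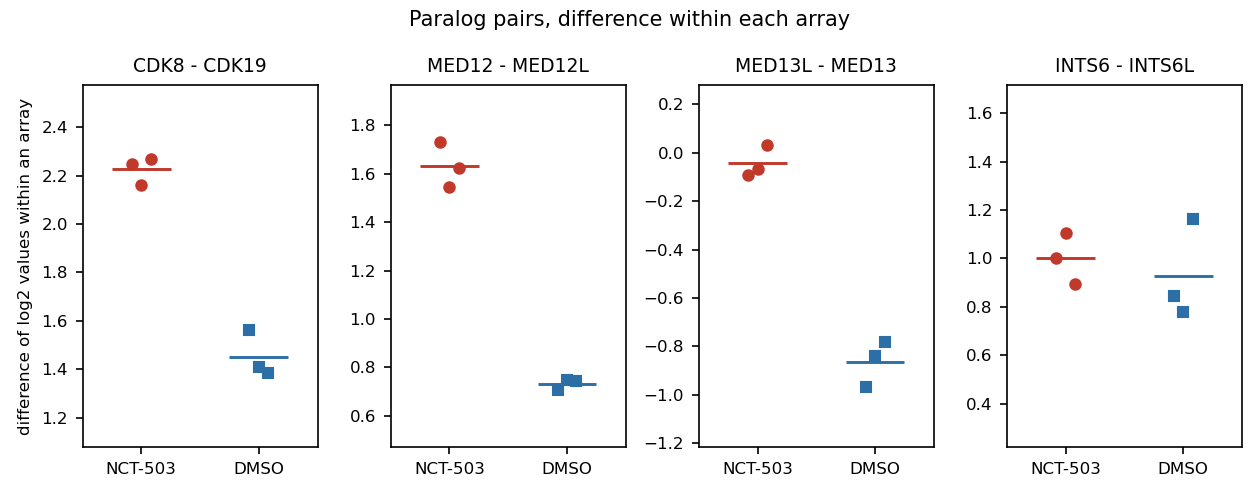
Difference of the deposited log2 values of 2 paralogs within each array (vertical axis), with NCT-503 arrays (red circles) left of DMSO arrays (blue squares) and lines at the group means; the panels have different ranges but the same span. The groups are apart for the CDK8, MED12 and MED13L pairs, by 0.78, 0.90 and 0.82 in their means, and overlap for INTS6 and INTS6L.

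The promoters of CDK8 and MED12 are shown as those of kinase module genes that rose together. The CDK8 window is chr13:26253879-26254128 and the MED12 window chrX:71118346-71118595, both on the plus strand of GRCh38.p14 (RefSeq).
CDK8: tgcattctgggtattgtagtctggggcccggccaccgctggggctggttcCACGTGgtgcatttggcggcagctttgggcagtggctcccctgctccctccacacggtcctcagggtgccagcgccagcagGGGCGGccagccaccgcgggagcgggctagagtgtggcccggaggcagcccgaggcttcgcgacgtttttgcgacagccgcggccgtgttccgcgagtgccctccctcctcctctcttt
MED12: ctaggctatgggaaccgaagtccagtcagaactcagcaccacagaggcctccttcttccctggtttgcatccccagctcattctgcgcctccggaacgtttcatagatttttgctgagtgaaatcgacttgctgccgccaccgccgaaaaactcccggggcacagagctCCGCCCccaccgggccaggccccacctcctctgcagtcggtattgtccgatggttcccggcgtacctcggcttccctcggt
In CDK8 the capitals mark the E-box CACGTG, bound by MYC and related factors, beginning 200 bases before the start, and GGGCGG, the motif of SP and KLF factors, 119 bases before it. In MED12 they mark GGGCGG on the opposite strand, beginning 81 bases before the start.

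Integrator had 12 measured subunits, of which 5 fell and 1 rose, beside 17.1% lower and 16.4% higher over all genes, and its median change was -0.18. With arrays centred on the 75th percentile 3 fell and 2 rose, and with median centring or quantile normalization 4 fell and 2 rose; a difference between Integrator and Mediator was not tested. When only genes from the 50th percentile of level up were tested, 7 of 11 Integrator subunits were called (63.6%), beside 61.3% of all such genes. Those calls were 2 higher and 5 lower for Integrator, and 2153 higher and 2377 lower for all 7390 such genes. The backbone and shoulder hold the complex together. INTS5, a shoulder subunit that pairs with INTS8, measured 4.13, 3.39 and 3.64 in NCT-503 arrays, against 5.21, 5.14 and 5.40 in DMSO arrays. Every NCT-503 array was at least 1.01 below every DMSO array, the widest gap of all 43 genes, and the change was -1.53 ± 0.19 (adjusted p = 0.000900). Scanner background was not used here, and the fold of a row this dim may be understated. INTS1, the largest subunit, had 6.21, 6.23 and 5.87 with NCT-503, against 6.59, 6.75 and 6.63 with DMSO, and fell by 0.55 ± 0.12 (adjusted p = 0.00973). INTS8 (-0.13) and INTS7 (0.03) were not called, and the interval for INTS7 ran from -0.13 to 0.20.

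The cleavage module consists of INTS11, the endonuclease, with its inactive partner INTS9 and the scaffold INTS4. INTS9 had 5.99, 6.14 and 5.87 with NCT-503, against 6.59, 6.46 and 6.69 with DMSO, and fell by 0.58 ± 0.10 (adjusted p = 0.00474). INTS11 had 6.89, 6.89 and 6.72 with NCT-503, against 6.57, 6.64 and 6.62 with DMSO. Its groups did not overlap, and its change of 0.22 ± 0.08 had an adjusted p of 0.0727. INTS11 was called higher under each of the 3 other scalings (adjusted p = 0.0346, 0.0199 and 0.0208 for median centring, 75th percentile centring and quantile normalization) and without NCT-503 c (0.0381). It was also called with a trend and robust settings in limma, and when only genes from the 25th or the 50th percentile of level were tested. INTS4 had 7.14, 7.35 and 7.16 with NCT-503, against 7.02, 7.24 and 7.04 with DMSO, with overlapping groups and a change of 0.12. A near copy of INTS4 among pseudogenes has a row of its own, and probes may not separate the copies.

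The phosphatase-linked and remaining subunits had smaller changes. INTS6, which brings PP2A to the complex, had 6.83, 6.81 and 6.76 in NCT-503 arrays, against 6.97, 7.00 and 7.13 in DMSO arrays. The groups stood 0.13 apart, and the change of -0.23 ± 0.08 was not called (adjusted p = 0.0593), though it was with a trend and robust settings in limma (0.0256) and when only genes from the 25th (0.0350) or the 50th percentile of level (0.0161) were tested. INTS6L fell by 0.30 ± 0.09 (adjusted p = 0.0455), a call lost with each of the 3 other scalings (0.0708 to 0.145) and on leaving out any array except DMSO c (0.0639 to 0.130). It was also lost with the replicate letter as a block (0.0940) and with all rows tested (0.0674). INTS3, which also forms a DNA repair complex with the single-strand binding proteins NABP1 and NABP2, fell by 0.27 ± 0.07 (adjusted p = 0.0247). That call was lost with centring on the 75th percentile (0.0632), with the replicate letter as a block (0.0626) and without any array except NCT-503 b (0.0537 to 0.0758). INTS12, a small subunit with a PHD finger that binds INTS1, rose by 0.29 ± 0.07 (adjusted p = 0.0210), and lost the call without DMSO a, DMSO c, NCT-503 b or NCT-503 c (0.0510 to 0.0724). INTS10 was the only subunit of the arm with a named row, and its change was -0.10.

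INTS7 starts back to back with DTL, which encodes a substrate receptor of the CUL4 ubiquitin ligase that acts in S phase. Their annotated starts lie 191 bases apart on opposite strands. DTL had 9.60, 9.60 and 9.62 in NCT-503 arrays, against 10.28, 10.29 and 10.30 in DMSO arrays, and fell by 0.68 ± 0.07 (adjusted p = 0.000386), whereas INTS7 had 8.35, 8.35 and 8.34 with NCT-503, against 8.26, 8.36 and 8.33 with DMSO. DTL thus stood apart between the groups in all arrays, and INTS7 overlapped. The bases between the starts are shown because both genes share them, in the INTS7 direction (chr1:212035558-212035747, minus strand, GRCh38.p14, RefSeq).
INTS7 to DTL: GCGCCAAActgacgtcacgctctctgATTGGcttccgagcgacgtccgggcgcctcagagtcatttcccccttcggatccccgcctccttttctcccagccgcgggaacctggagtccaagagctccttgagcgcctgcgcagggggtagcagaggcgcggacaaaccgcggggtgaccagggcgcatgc
The capitals at the DTL end mark the E2F motif TTTGGCGC on the opposite strand, and the others mark CCAAT on the opposite strand, beginning 164 bases before the INTS7 start. The other pairs of this kind with both genes measured were INTS11 with CPTP, 142 bases apart, with changes of 0.22 and -0.25, and MED20 with BYSL, 556 bases apart, with changes of -0.20 and -0.26. None of these 4 genes was called.

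Of the 43 genes, 32 had a promoter in the RefSeq table, in 37 windows of 250 bases. Both strands were searched, and none of the matches printed here overlap. CCGGAAG was found in 10 of the 37 windows (27.0%), of INTS1, INTS3, INTS4, INTS11, MED7, MED15, MED17, MED18 and MED31, against 8.52% of all 35116 promoter windows. Among those genes MED17, MED31, INTS1 and INTS3 fell and MED15 rose. GGGCGG was found in 21 windows (56.8%, against 42.6% of all), CCAAT in 15 (40.5%, against 32.0%), and CACGTG in those of CDK8, INTS6 and MED13L (8.11%, against 6.34%). The E2F motifs TTTCCCGC and TTTGGCGC were found in 2 windows each (5.41%, against 1.39% and 0.550%), of CDK19 and MED9 and of INTS7 and MED18. TATAAA was found for MED7 and MED16 (5.41%, against 10.7%). TGATGCAA, the composite motif of ATF4 with C/EBP factors, was in none of the 37 windows and in 0.772% of all. The windows of all promoters were not matched to the subunits in level of expression, and no excess of a motif was tested. These matches are descriptions of the letters and not binding sites.

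Genes of neighbouring transcription steps, on 6 lists of 90 genes, went both ways as well. Of 39 measured, 9 rose and 13 fell (56.4%, beside 33.5% of all genes), with a median change of 0.03. When only genes from the 50th percentile of level up were tested, 12 rose and 13 fell of 34 (73.5%, beside 61.3% of all such genes). Polymerase pausing and elongation factors split evenly, with 5 rises and 5 falls among 19 (52.6% called, beside 33.5% of all genes). CDK13, a kinase of the polymerase tail in elongation, had 7.30, 7.34 and 7.52 in NCT-503 arrays, against 8.53, 8.60 and 8.69 in DMSO arrays, and fell by 1.22 ± 0.09 (adjusted p = 0.000135). Its relative CDK12 fell by 0.66 ± 0.08, and CDK9, the kinase that releases paused polymerase, by 0.49 ± 0.10. The pausing and elongation factor SUPT5H rose by 0.74 ± 0.13, with EAF1, a partner of the ELL elongation factors, at 0.69 ± 0.08 and NELFA, a subunit of the negative elongation factor, at 0.62 ± 0.08. In the same factor NELFCD fell by 0.27 ± 0.07 (adjusted p = 0.0269), and NELFB had a change of 0.01 and was not called. On the same list CCNT1 rose by 0.26 ± 0.08 (adjusted p = 0.0333), and CCNT2 had a change of 0.06 and was not called.

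Among partners of Integrator, NABP1 had 4.09, 3.81 and 4.29 with NCT-503, against 5.12, 5.04 and 5.10 with DMSO, and fell by 1.02 ± 0.12 (adjusted p = 0.000924). Its paralog NABP2 rose by 0.35 ± 0.10 (adjusted p = 0.0293), and INIP, the third member of that complex, had a change of -0.33 (adjusted p = 0.0833). Of 3 measured genes that activate small nuclear RNA genes, ICE2 and ICE1, subunits of the little elongation complex, fell by 0.70 ± 0.07 and 0.47 ± 0.08, and ZNF143, a factor of their promoters, rose by 0.49 ± 0.08. Of 6 measured genes of mRNA cleavage and polyadenylation, WDR33 fell by 0.67 ± 0.09 and the poly(A) polymerase PAPOLA by 0.40 ± 0.08, while FIP1L1 rose by 0.33 ± 0.07. Of 4 measured polymerase subunits POLR2F and POLR2D fell, by 0.44 and 0.38, and of 4 initiation factors TBP fell by 0.55 and CDK7 rose by 0.38.

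**Figure D4:**
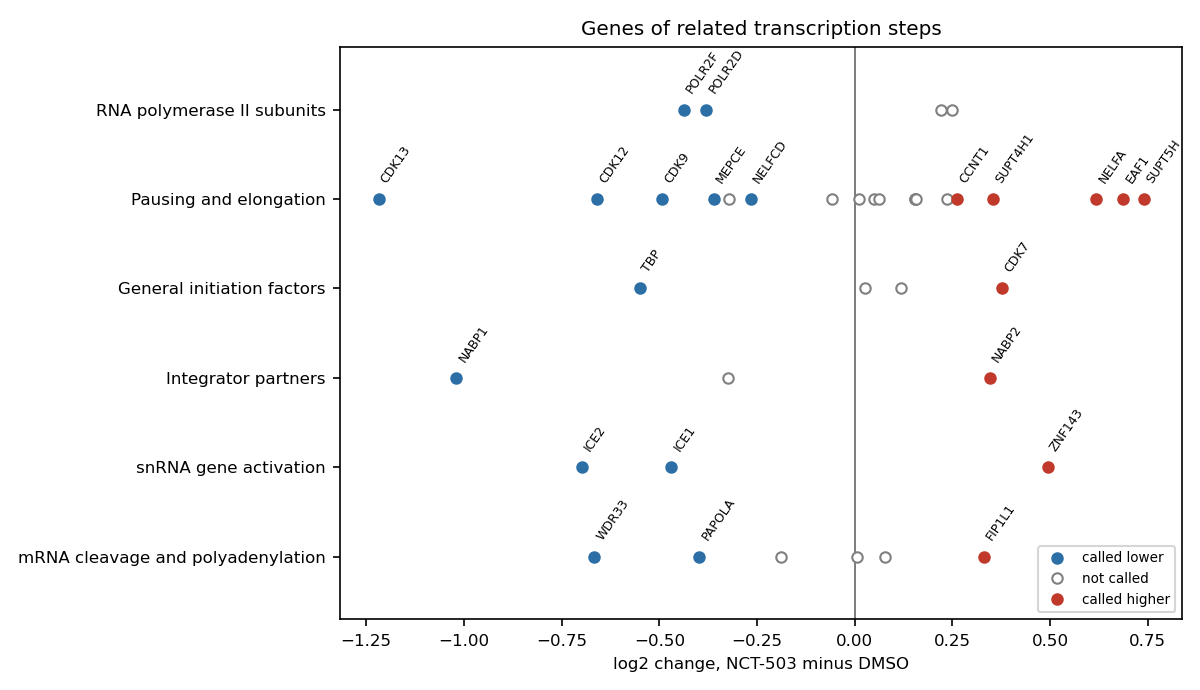
Log2 change, NCT-503 minus DMSO, of the 39 measured genes on 6 lists of related transcription steps (horizontal axis), 1 point per gene; red marks genes called higher, blue genes called lower, and open symbols genes not called. Falls reach -1.22 (CDK13) and rises 0.74 (SUPT5H), with called genes on both sides in every list but that of polymerase subunits.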

How the data were processed

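Total RNA from 6 samples was hybridised to Affymetrix whole-transcript arrays, 1 per sample, per the labels' protocols. The deposited values, from 0.578 to 13.6, were read as log2 values. Partek was the authors' software, per the submitters' processing notes. The sources used here give neither its version nor the background correction, summarisation or normalization. The values are not centred per gene. Of 31135 rows, 15098 carried 1 gene symbol and none several, and all of these matched a RefSeq gene (GRCh38.p14) by Entrez identifier, which served for names and neighbours. Per gene the row with the highest mean was used, which left 14779 genes; each subunit had 1 row.

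The test was limma's (version 3.58.1, R 4.3.3): lmFit, then eBayes without a trend or covariates, two-sided, adjusted over all genes by Benjamini-Hochberg; intervals are limma's at 95%. The fit was tested on simulated data. Members, module roles and related lists were chosen with earlier results of these data known. Every subunit could be named; values per array are given for called subunits with an absolute change of at least 0.5, for the kinase module, MED14, INTS4, INTS6, INTS9 and INTS11. INTS7 and DTL share a promoter, and were the only measured back-to-back pair with a called gene. Both, and the genes of related lists beyond the 4 largest called per list, were named after their values were seen. MED6, MED25, INTS2, INTS13, INTS14 and INTS15 had no named row and were not analysed here.

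Alternatives were trend and robust settings, a replicate block, 3 other scalings, tests of genes from the 25th or the 50th percentile of level up, the mean of a gene's rows, all rows, leaving out each array, and an adjusted p under 0.01. Labels name no batch. Figures were drawn with matplotlib 3.10.9.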

Additional observations from a re-analysis of the deposited data

How the results depend on the processing

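Of the 23 called subunits, 17 kept their call under every alternative in which they were tested, other than the stricter threshold (INTS5 lay below the 50th percentile of level and was not tested there), and 17 passed an adjusted p under 0.01; MED31, MED28, MED10, INTS3, INTS6L and INTS12 lost theirs when at least 1 array was left out. No called subunit changed sign in the alternatives that tested it, 16 for each but INTS5, with 15, and 5 subunits that were not called gained a call in at least 1. Leaving out 1 array gave 7 to 9 subunits higher and 11 to 12 lower, against 9 and 14 on all arrays. With the threshold at 0.01, calls over all genes numbered 1226 higher and 1682 lower, and 5 related transcription genes were higher, against 9 at 0.05; fewer calls follow from the stricter threshold itself. With the replicate letter as a replicate block, 10 subunits were higher and 11 lower, 20 of them shared with the 23. Samples of the same letter share only that letter: their deviations from the group means correlated at 0.004, 0.003 and 0.04 for a, b and c. Centring on the median or the 75th percentile moved the median change of all genes by 0.04 or 0.07, and quantile normalization by -0.02. Sign changes were limited to subunits that were not called and lay near 0: MED7 went to 0.0014 with 75th percentile centring and 0.011 with quantile normalization, MED27 to -0.045 with quantile normalization, and, over the arrays left out in turn, MED9 ran from -0.088 to 0.097, MED27 from -0.159 to 0.266 and MED26 from -0.047 to 0.189. The cause of these was not tested. Signal over background was not used here, so how far the dim rows of MED27, MED18 and INTS5 stand above it was not tested.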
